A study of Arabidopsis thaliana with 12 samples.

Results

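The JASMONATE ZIM-DOMAIN (JAZ) proteins are the repressors of jasmonate signalling in plants, and the RNA of 10 of their genes was followed here in Arabidopsis seedlings that lack full function of SERRATE or of the nuclear cap-binding complex. The genes were taken by identifier: JAZ1 (AT1G19180), JAZ2 (AT1G74950), JAZ3 (AT3G17860), JAZ5 (AT1G17380), JAZ6 (AT1G72450), JAZ7 (AT2G34600), JAZ8 (AT1G30135), JAZ9 (AT1G70700), JAZ10 (AT5G13220) and JAZ12 (AT5G20900). They are 10 of the 32833 genes in the count table. Poly(A) RNA was sequenced from se-1, cbp20, cbp80 and WT plants, with 3 libraries from different pools of plants for each of the 4 genotypes. The se-1 plants carry a small deletion in SERRATE (SE), an RNA processing factor, and keep part of its function, since null alleles of SE are lethal. The cbp20 plants are mutated in the small subunit of the cap-binding complex and the cbp80 plants in its large subunit, and their labels give no allele. The wild type (WT) is Col-0, the background of the 3 mutants. All plants were 16-day-old whole seedlings from ½ strength MS under constant light, received no treatment, and were gathered on ice for about 30 minutes before freezing.

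In plants at rest, JAZ proteins bind MYC2 and related transcription factors and recruit co-repressors of the TOPLESS family, for most JAZ proteins through the adaptor NINJA. When jasmonoyl-isoleucine accumulates after wounding or attack, it joins JAZ proteins to the F-box protein COI1, the SCF complex around COI1 marks them for degradation, and the freed MYC factors activate their targets. The JAZ genes are themselves such targets, so that new repressor is made as the old one is lost, and JAZ RNA is widely used as a readout of jasmonate signalling. MYC factors bind the G-box, the DNA sequence CACGTG.

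The libraries held 18565569 to 27068656 read pairs counted on genes. CBP20 RNA was lower in cbp20 than in WT, at 12.4 ± 1.21 CPM (counts scaled to a library total of 1e6; SD, n = 3) against 36.3 ± 3.04 CPM. SE had 80.1 ± 1.79 CPM in se-1 and 83.4 ± 3.71 CPM in WT, and CBP80 had 36.0 ± 4.13 CPM in cbp80 and 40.3 ± 4.02 CPM in WT, so RNA levels against WT did not check these 2 labels. The CBP80 level in cbp80 was below those in se-1 (52.6 ± 1.55 CPM) and cbp20 (47.2 ± 3.35 CPM). Those levels were themselves above the WT mean, so this gap does not check the cbp80 label. The tissue label was checked with marker genes: shoot and root markers were present in every library, except LHCB1.5, which had 0 counts in all 12 and whose exons lie wholly within another annotated gene. Of the genes tested against WT, 16.2% were called lower and 17.6% higher in se-1, 9.48% and 10.2% in cbp20, and 18.6% and 20.1% in cbp80 (edgeR's quasi-likelihood test, Benjamini-Hochberg adjusted p under 0.05). When libraries were scaled by their size alone rather than by TMM, the calls tilted towards lower levels, with 5074 lower and 2649 higher genes in se-1 (3319 and 3602 with TMM), 2608 and 1676 in cbp20 (1941 and 2090), and 5529 and 3130 in cbp80 (3830 and 4125).

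Stretches upstream of the JAZ genes are shown because these genes are known MYC targets. In the 1000 bases before the annotated gene start, 8 of the 10 JAZ genes (80.0%) held at least 1 CACGTG, as did 14.1% of the 32546 genes of the 5 chromosomes. At least 2 were held by 3 JAZ genes (30.0%) and by 2.49% of all genes. The search used the TAIR10 sequence, and CACGTG reads the same on both strands. The lines below give the windows of the 5 genes that were lower in at least 2 of the mutants and of JAZ3, which was called in none. The G-box is in capitals, with 11 bases on each side, and each window is written from 5′ to 3′ on the strand of its gene.
JAZ1, chr1:6620922-6620949, plus strand: ccatgataaaaCACGTGtcatatcgaat
JAZ2 distal, chr1:28151101-28151128, minus strand: gttaagttagaCACGTGtaaggtcgcga
JAZ2 proximal, chr1:28150496-28150523, minus strand: ttaaattaaaaCACGTGttttaaatgtc
JAZ5, chr1:5958084-5958111, minus strand: tctatttaaacCACGTGttttaatcaaa
JAZ6 distal, chr1:27277060-27277087, minus strand: caagattccgaCACGTGttgacatccta
JAZ6 proximal, chr1:27277024-27277051, minus strand: taacaatacttCACGTGtccttaaactt
JAZ9, chr1:26654152-26654179, plus strand: ttcaaaaatttCACGTGttatgaaatga
JAZ3 distal, chr3:6119556-6119583, plus strand: ttaaaatagcgCACGTGcctcgccacgc
JAZ3 proximal, chr3:6119614-6119641, plus strand: gcacgacgatgCACGTGcctttttaacc

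The boxes ended between 839 bases (JAZ1) and 61 bases (JAZ2 proximal) before the gene start in the 5 genes, and 135 and 77 bases before it in JAZ3. JAZ7 and JAZ8 had 1 box each, 29 and 5 bases before their starts. No CACGTG was found in the windows of JAZ10 and JAZ12. These matches describe the letters only, and no binding was measured. Of the 10 genes, 6 lie on chromosome 1 (JAZ1, JAZ2, JAZ5, JAZ6, JAZ8 and JAZ9). No first isoform is intronless, and they hold between 1 intron (JAZ7) and 6 introns (JAZ3 and JAZ9). The 3 annotated transcripts of JAZ1 have from 0 to 2 introns. JAZ10 (chromosome 5, 4218786 to 4221077) and JAZ12 (chromosome 5, 7090704 to 7092539) share 3.21% and 4.53% of their exon bases with other annotated genes, and the other 8 share none. The counting dropped any pair assigned to more than a single gene, so pairs in these overlaps are missing from the counts of JAZ10 and JAZ12.

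Compared per length, in TPM (transcripts scaled to a total of 1e6), JAZ12 was the most abundant of the 10 genes in every genotype, with 76.3 ± 5.95 TPM in se-1, 84.0 ± 8.36 TPM in cbp20, 78.1 ± 0.675 TPM in cbp80 and 81.3 ± 2.14 TPM in WT (SD, n = 3 each). In WT, JAZ6 followed with 51.7 ± 2.94 TPM and JAZ9 with 47.0 ± 1.99 TPM. JAZ2 (37.1 ± 1.09 TPM) and JAZ1 (36.0 ± 1.67 TPM) overlapped in WT and could not be ordered. The remaining genes were well below: JAZ3 had 10.7 ± 0.416 TPM, JAZ5 5.41 ± 1.29 TPM, JAZ7 2.73 ± 0.394 TPM, JAZ10 1.48 ± 0.445 TPM and JAZ8 0.373 ± 0.245 TPM. Among these WT levels, neighbours other than JAZ2 and JAZ1 did not overlap between libraries. The order was much the same in the mutants. In se-1 and cbp80 the range of JAZ1 lay above that of JAZ2. In cbp20 JAZ9, JAZ6, JAZ1 and JAZ2 overlapped from neighbour to neighbour, at means of 33.1, 31.8, 30.8 and 27.5 TPM, and in cbp80 JAZ9, JAZ6 and JAZ1 did, at 38.0, 31.2 and 30.0 TPM. JAZ5 and JAZ7 overlapped in se-1 and cbp20, and JAZ7 and JAZ10 in cbp20. This order depends on the exon lengths used, such as 1081 bases for JAZ12 and 2128 for JAZ6. Without division by length, JAZ6 was above JAZ12 in WT, at 67.0 against 53.5 CPM.

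**Figure D1:**
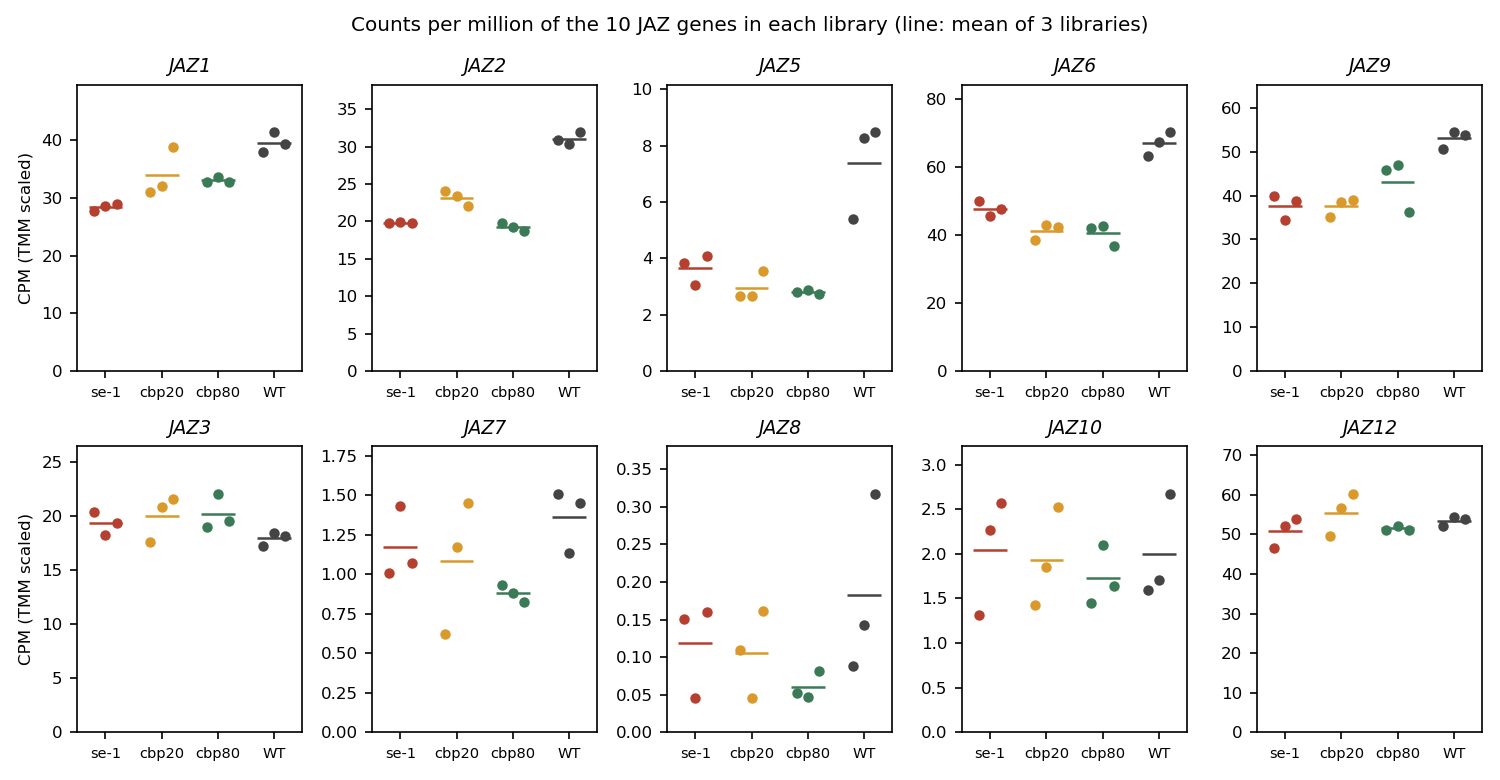
CPM of the 10 JAZ genes (vertical axes, each from 0) in the 3 libraries of se-1, cbp20, cbp80 and WT, with a line at the mean of each genotype. For JAZ2, JAZ5, JAZ6 and JAZ9 every mutant library lies below every WT library, and for JAZ12 and JAZ10 the genotypes overlap.

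The main comparison asked whether JAZ RNA differed between each mutant and WT. Of the 10 genes, 9 had enough counts for a test, and JAZ8 did not. In se-1, 5 of the 9 were lower (JAZ1, JAZ2, JAZ5, JAZ6 and JAZ9), against 16.2% of all tested genes. In cbp20, 4 were lower (JAZ2, JAZ5, JAZ6 and JAZ9), against 9.48% of all tested genes. In cbp80 the same 5 genes as in se-1 were lower, against 18.6%. No JAZ gene was called higher in any mutant by edgeR or by DESeq2, and at an unadjusted p under 0.05 by edgeR 0, 0 and 1 gene (JAZ3) was higher in se-1, cbp20 and cbp80. All 3 mutant libraries lay below all 3 WT libraries for 5 of the 9 genes in se-1, 4 in cbp20, and 6 for cbp80, against 23.2%, 17.8% and 24.7% of all tested genes. The genes JAZ2, JAZ5, JAZ6 and JAZ9 were called lower in each of the 3 mutants, as were 6.6% of the 20312 genes tested in all 3 comparisons. The 3 comparisons use the same WT libraries and are therefore not independent of each other. The median log2 fold change of the 9 genes was -0.47 in se-1, -0.39 in cbp20, and -0.30 for cbp80, where the median over all tested genes was -0.0040, -0.0012 and -0.0077. Since whole seedlings were used, a lower level can mean fewer cells of a type or less RNA per cell, and these cannot be told apart.

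**Figure D2:**
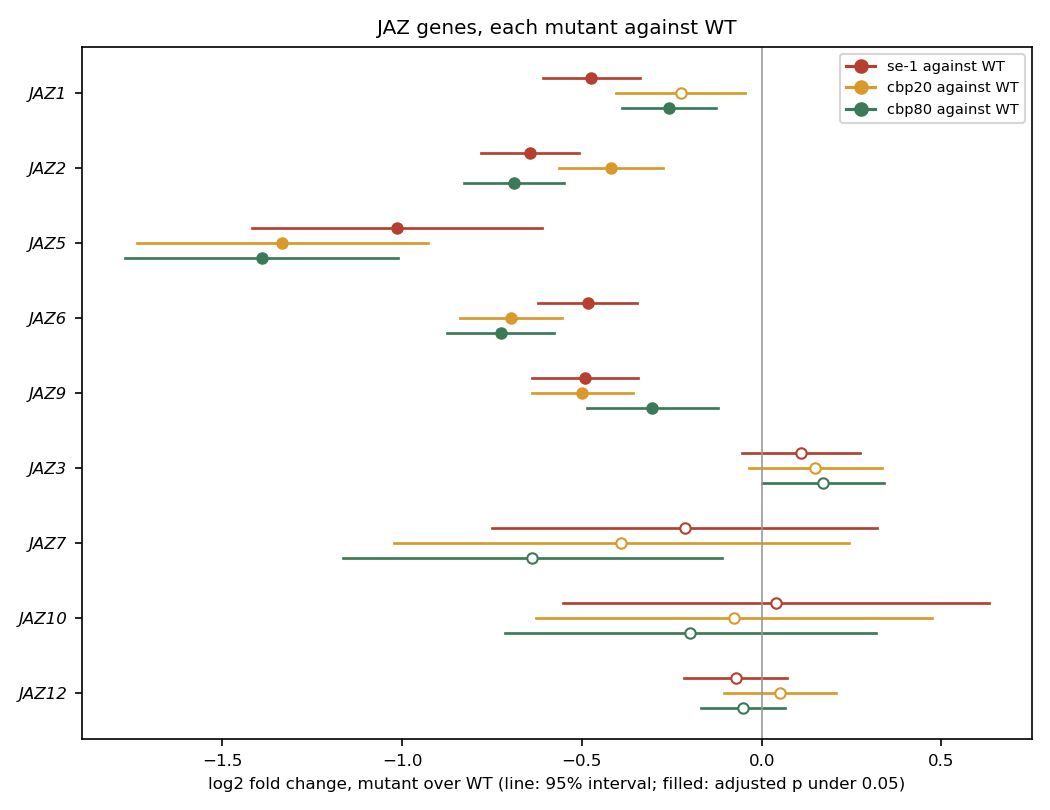
Log2 fold change of the 9 tested JAZ genes (horizontal axis, mutant over WT), with 95% intervals as lines, and filled points where the adjusted p was under 0.05. JAZ5 has the lowest points, at -1.01, -1.33 and -1.39, and the points of JAZ3, JAZ10 and JAZ12 lie between -0.20 and 0.17.

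JAZ5 and JAZ6 form a pair of closely related repressors, and both carry an EAR motif, a short peptide that binds TOPLESS directly. JAZ5 had 3.83, 3.05 and 4.06 CPM in se-1, 2.64, 2.66 and 3.54 CPM in cbp20, and 2.80, 2.89 and 2.71 CPM in cbp80, against 5.37, 8.25 and 8.47 CPM in WT. Every mutant library was below the lowest WT library, which was WT replicate 1 and stood apart from the other two. The log2 fold change was -1.01 in se-1 (standard error 0.19, adjusted p = 0.0011), -1.33 in cbp20 (standard error 0.19, adjusted p = 0.00019) and -1.39 in cbp80 (standard error 0.18, adjusted p = 2.7e-05, edgeR's quasi-likelihood test, adjusted by Benjamini-Hochberg, as for every adjusted p given here). JAZ5 thus showed the largest change of the 9 genes in each mutant, and rested on 54 to 187 counts per library. Leaving out any 1 library kept it under the threshold, with a log2 fold change between -1.20 and -0.89 in se-1, -1.52 and -1.22 in cbp20, and -1.58 and -1.28 in cbp80.

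JAZ6 was counted far more deeply, with 789 to 1552 read pairs per library. It had 50.1, 45.5 and 47.8 CPM in se-1, 38.6, 43.1 and 42.4 CPM in cbp20, and 42.1, 42.6 and 36.8 CPM in cbp80, against 63.4, 67.3 and 70.3 CPM in WT. No mutant library reached the WT range. JAZ6 fell by 28.5% in se-1 (log2 fold change -0.48, standard error 0.06, adjusted p = 8.6e-05), by 38.3% in cbp20 (-0.70, standard error 0.07, adjusted p = 6.1e-06) and by 39.6% in cbp80 (-0.73, standard error 0.07, adjusted p = 1.5e-06).

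JAZ1 and JAZ2 are another closely related pair, and JAZ1 was among the first JAZ proteins shown to be degraded through COI1. JAZ1 had 27.7, 28.6 and 29.0 CPM in se-1, 31.0, 32.0 and 38.9 CPM in cbp20, and 32.7, 33.7 and 32.7 CPM in cbp80, against 38.0, 41.4 and 39.3 CPM in WT. The se-1 and cbp80 libraries were all below WT, while cbp20 replicate 3 lay within the WT range. JAZ1 fell in se-1 by 0.47 on the log2 scale (standard error 0.06, adjusted p = 8.2e-05) and in cbp80 by 0.26 (standard error 0.06, adjusted p = 0.0039). In cbp20 its log2 fold change was -0.23 (standard error 0.08) with an adjusted p of 0.076, which missed the threshold. This was the JAZ gene whose call depended most on the processing: in cbp20 it passed in 4 of 6 other settings, with adjusted p-values from 0.033 to 0.12, and at 0.0085 with a log2 fold change of -0.33 when cbp20 replicate 3 was left out.

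JAZ2 had 19.8, 19.9 and 19.8 CPM in se-1, 24.0, 23.3 and 22.1 CPM in cbp20, and 19.8, 19.3 and 18.7 CPM in cbp80, against 30.9, 30.3 and 31.9 CPM in WT. Its coefficient of variation was 0.383% in se-1, 4.19% in cbp20, 3.07% in cbp80 and 2.65% in WT, and no mutant library came near WT. At 370 to 705 counts per library, counting error alone is expected to give coefficients of this size or larger. They therefore do not measure how alike the pools of plants were. JAZ2 fell by 0.64 on the log2 scale in se-1 (standard error 0.06, adjusted p = 7.6e-06), by 0.42 in cbp20 (standard error 0.07, adjusted p = 0.00053) and by 0.69 in cbp80 (standard error 0.06, adjusted p = 1.4e-06).

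JAZ9 and JAZ3 belong to one branch of the family, and the 2 genes differed in these mutants. JAZ9 had 39.8, 34.4 and 38.7 CPM in se-1, 35.1, 38.5 and 39.1 CPM in cbp20, and 45.9, 46.9 and 36.2 CPM in cbp80, against 50.7, 54.4 and 53.9 CPM in WT. All mutant libraries were below WT, and in cbp80 replicate 3 was low against the other two. The log2 fold change was -0.49 in se-1 (standard error 0.07, adjusted p = 0.00013), -0.50 in cbp20 (standard error 0.07, adjusted p = 0.00010) and -0.30 in cbp80 (standard error 0.08, adjusted p = 0.012). Without cbp80 replicate 3 the value in cbp80 was -0.19 with an adjusted p of 0.046.

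JAZ3, whose truncated mutant protein gave the jasmonate-insensitive jai3-1 plants, had 20.4, 18.3 and 19.4 CPM in se-1, 17.6, 20.9 and 21.6 CPM in cbp20, and 19.0, 22.1 and 19.5 CPM in cbp80, against 17.3, 18.4 and 18.2 CPM in WT. The se-1 and cbp20 libraries overlapped WT, and the 3 cbp80 libraries lay just above it. The log2 fold change was 0.11 in se-1 (95% interval -0.05 to 0.27, adjusted p = 0.30), 0.15 in cbp20 (-0.04 to 0.34, adjusted p = 0.26) and 0.17 in cbp80 (0.00046 to 0.34, adjusted p = 0.10), none of which passed. The lower ends of these intervals leave out a decrease of the size measured for JAZ9 in the same mutants.

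JAZ7 and JAZ8 encode short repressors with an EAR motif, and JAZ8 lacks the sequence that lets COI1 bind with the hormone. JAZ8 was near the limit of detection, and JAZ7 had few counts. JAZ7 had 1.01, 1.43 and 1.07 CPM in se-1, 0.62, 1.17 and 1.45 CPM in cbp20, and 0.93, 0.89 and 0.82 CPM in cbp80, against 1.51, 1.14 and 1.45 CPM in WT, from 17 to 34 counts per library. The cbp80 libraries were all below WT and the others overlapped it. The log2 fold change was -0.21 in se-1 (95% interval -0.75 to 0.32, adjusted p = 0.55), -0.39 in cbp20 (-1.02 to 0.24, adjusted p = 0.40) and -0.64 in cbp80 (-1.16 to -0.11, adjusted p = 0.053). The cbp80 value narrowly missed the threshold and passed it in 1 of 6 other settings, scaling to library size only (adjusted p = 0.031), and without WT replicate 2 (adjusted p = 0.043). JAZ8 had 3, 1 and 3 counts in se-1, 3, 1 and 3 in cbp20, and 1, 1 and 2 in cbp80, against 2, 3 and 7 in WT. A count of 3, taken as the floor, is 0.110 to 0.161 CPM in these libraries, so that no difference in JAZ8 was detectable at this depth and no fold is given.

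JAZ10 makes several splice forms, some of which lose the part bound by COI1, and its loss enhances jasmonate responses. It had 1.31, 2.27 and 2.57 CPM in se-1, 1.43, 1.85 and 2.52 CPM in cbp20, and 1.45, 2.10 and 1.64 CPM in cbp80, against 1.60, 1.71 and 2.67 CPM in WT, from 26 to 59 counts per library. The genotypes overlapped fully. The log2 fold change was 0.039 in se-1 (95% interval -0.55 to 0.63, adjusted p = 0.93), -0.077 in cbp20 (-0.63 to 0.47, adjusted p = 0.87) and -0.20 in cbp80 (-0.72 to 0.32, adjusted p = 0.55). These intervals are wide and include decreases of the size measured for JAZ9 in the same mutants. The sign of JAZ10 changed with single libraries left out in each of the 3 mutants.

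JAZ12, which also interacts with the ubiquitin ligase KEEP ON GOING, had 46.5, 52.1 and 53.8 CPM in se-1, 49.5, 56.8 and 60.3 CPM in cbp20, and 51.3, 52.2 and 51.2 CPM in cbp80, against 52.2, 54.4 and 53.9 CPM in WT. The ranges overlapped WT in every mutant. The log2 fold change was -0.073 in se-1 (95% interval -0.22 to 0.070, adjusted p = 0.43), 0.051 in cbp20 (-0.10 to 0.21, adjusted p = 0.69) and -0.052 in cbp80 (-0.17 to 0.065, adjusted p = 0.48). With 922 to 1350 counts per library, these intervals lie within 0.22 of 0 on the log2 scale. They leave out decreases of the size measured for JAZ2, JAZ5 and JAZ6 in the same mutants.

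Summed over the 10 genes, JAZ RNA was 208 to 219 TPM in the se-1 libraries, 207 to 241 TPM in cbp20 and 207 to 225 TPM in cbp80, against 262 to 282 TPM in WT. No mutant library reached the lowest WT library. The means were 77.7%, 82.1% and 79.4% of the WT mean of 274 ± 10.6 TPM in se-1, cbp20 and cbp80. The sum is given as a description, since its members were not chosen independently of earlier results. JAZ6, JAZ9, JAZ2 and JAZ1 made up most of the difference: in cbp80 their means were 31.2, 38.0, 23.0 and 30.0 TPM, against 51.7, 47.0, 37.1 and 36.0 TPM in WT. JAZ12 held 35.8% of the summed level in se-1, 37.3% in cbp20, and 35.9% for cbp80, against 29.7% in WT.

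**Figure D3:**
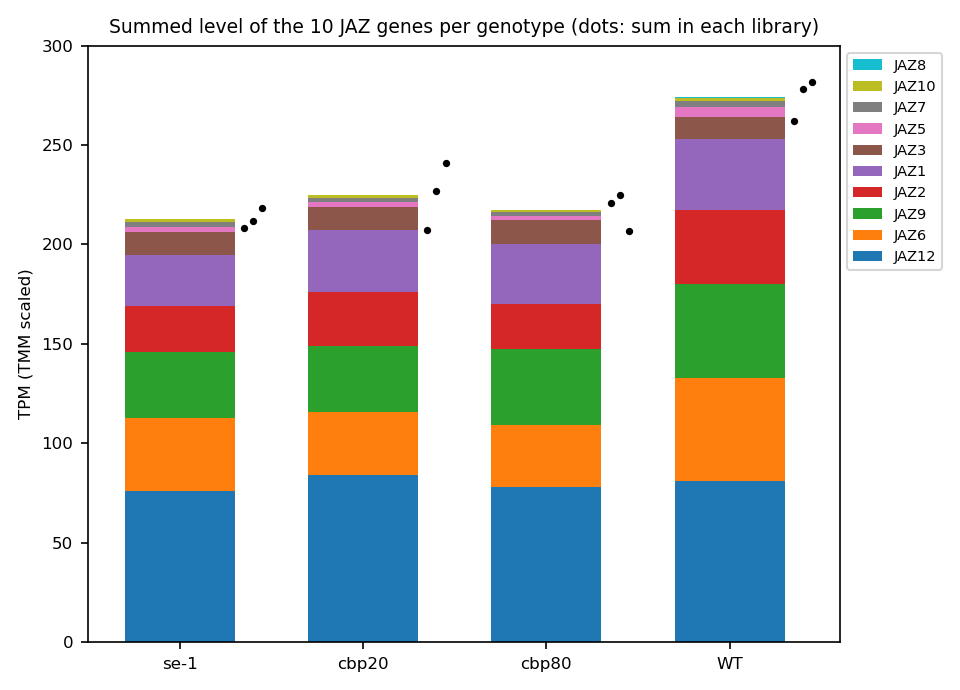
Mean level of each of the 10 JAZ genes in TPM, stacked per genotype, with dots for the sum in each of the 3 libraries. The sums in the mutants lie between 207 and 241 TPM and those in WT between 262 and 282 TPM, and the JAZ12 segment at the base is alike in the 4 genotypes.

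The mutants were also set against each other, in 1 fit of all 12 libraries in which WT cancels. Of the 9 genes, 2 were called between se-1 and cbp20 (13.6% of all tested genes in either direction), 1 between se-1 and cbp80 (11.4%) and 1 between cbp80 and cbp20 (10.2%). JAZ1 was lower in se-1 than in cbp20 by a log2 fold change of -0.25 (95% interval -0.41 to -0.09, adjusted p = 0.036), and this call was lost with only the 6 libraries compared (adjusted p = 0.081) and without any 1 se-1 library or cbp20 replicate 3 (0.073 to 0.17). JAZ2 was lower in se-1 than in cbp20 by -0.23 (-0.35 to -0.10, adjusted p = 0.019) and lower in cbp80 than in cbp20 by -0.27 (-0.40 to -0.14, adjusted p = 0.0077). The difference between cbp80 and cbp20 was the only one to pass in every alternative and with each library left out, with adjusted p-values from 0.0047 to 0.043, while that between se-1 and cbp20 did not pass with DESeq2 (0.060), with the 6 libraries alone (0.057), or without se-1 replicate 1 (0.052), se-1 replicate 3 (0.060) or cbp20 replicate 1 (0.086). The cbp20 libraries thus held the highest JAZ2 level of the 3 mutants.

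JAZ6 was higher in se-1 than in cbp80 by a log2 fold change of 0.24 (95% interval 0.09 to 0.39, adjusted p = 0.033), a call that was lost without se-1 replicate 1 (0.11), se-1 replicate 3 (0.080) or cbp80 replicate 3 (0.16). It was 0.21 higher in se-1 than in cbp20 with an adjusted p of 0.053. For JAZ5 the values between mutants were 0.32 for se-1 over cbp20 (95% interval -0.10 to 0.73, adjusted p = 0.33), 0.38 for se-1 over cbp80 (-0.04 to 0.79, adjusted p = 0.25) and -0.059 for cbp80 over cbp20 (-0.48 to 0.37, adjusted p = 0.90). JAZ9 differed by 0.0058 between se-1 and cbp20 (-0.18 to 0.19, adjusted p = 0.98), by -0.19 for se-1 over cbp80 (adjusted p = 0.18, or 0.019 without cbp80 replicate 3) and by 0.20 for cbp80 over cbp20 (adjusted p = 0.18, or 0.017 without cbp80 replicate 3). The other genes were not called in any pair.

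**Figure D4:**
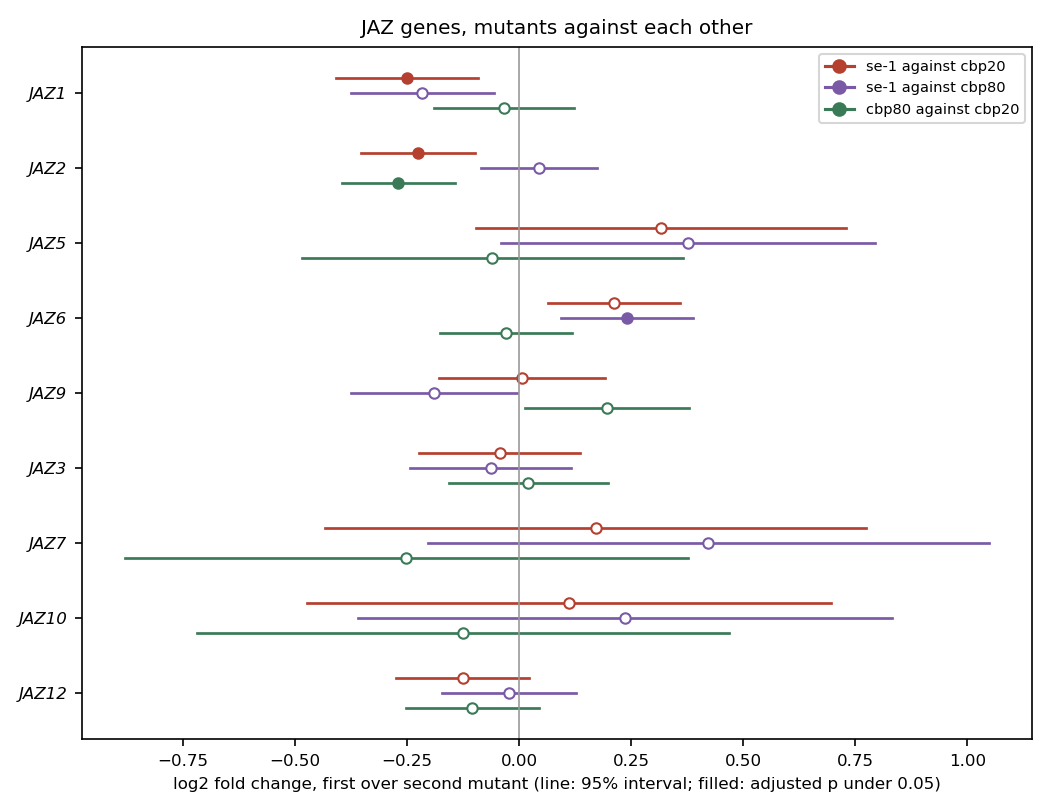
Log2 fold change of the 9 tested JAZ genes between mutants (horizontal axis, first over second mutant named), with 95% intervals as lines and filled points where the adjusted p was under 0.05. The 4 filled points are JAZ1 and JAZ2 for se-1 over cbp20, JAZ2 for cbp80 over cbp20 and JAZ6 for se-1 over cbp80, and their sizes lie between 0.23 and 0.27.

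Within genotypes, the correlations between JAZ genes from library to library differed from pair to pair. As a description over the 12 libraries, log2 levels were correlated after subtracting the genotype means. Among all pairs of the 9 tested genes, the highest were JAZ6 with JAZ9 (0.93), JAZ10 with JAZ12 (0.80) and JAZ1 with JAZ12 (0.75). The lowest was JAZ1 with JAZ2 (-0.71). JAZ10 rested on 26 to 59 counts per library, and counting error alone can give the spread of JAZ2 within genotypes. The values with these 2 genes therefore do not show that genes moved together or apart. The values in a library share its depth and its pool of plants.

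A chosen list of 6 other genes with a TIFY domain served as a comparison within the family: JAZ4, JAZ11 and JAZ13, the growth regulators PPD1 and PPD2 (PEAPOD), and TIFY8. JAZ13 had 0 to 10 counts and was not tested. Of the other 5, edgeR and DESeq2 called 0 in any mutant against WT. By edgeR, 16.2%, 9.48% and 18.6% of all tested genes were lower in se-1, cbp20 and cbp80. At an unadjusted p under 0.05 by edgeR, 0 were lower in se-1, 1 in cbp20, and 2 for cbp80, and 0 were higher. JAZ11, the closest relative of JAZ12, came nearest, with log2 fold changes of -0.19, -0.25 and -0.24 and adjusted p-values of 0.17, 0.11 and 0.10 in se-1, cbp20 and cbp80 (JAZ11 was picked after its values were seen). No test of the JAZ genes against these genes was made.

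The receptor and the adaptor of JAZ proteins were called in no mutant. COI1 had 48.8 ± 2.63 CPM in se-1, 46.7 ± 2.47 CPM in cbp20 and 48.3 ± 3.07 CPM in cbp80, against 50.1 ± 2.04 CPM in WT (adjusted p = 0.72, 0.32 and 0.55). NINJA had 48.2 ± 1.09, 51.3 ± 1.31 and 48.1 ± 1.70 CPM in se-1, cbp20 and cbp80, against 49.1 ± 2.24 CPM in WT (adjusted p = 0.79, 0.52 and 0.74). Of the 5 genes for COI1 and the core of its SCF complex, 1 was higher in se-1 (CUL1), 1 in cbp20 (CUL1) and 2 in cbp80 (CUL1 and ASK1), and 0 were lower. Over all tested genes, 16.2% were lower and 17.6% higher in se-1, 9.48% and 10.2% in cbp20, and 18.6% and 20.1% in cbp80. CUL1, the cullin scaffold, rose by 0.42, 0.25 and 0.39 on the log2 scale in se-1, cbp20 and cbp80 (adjusted p = 0.00016, 0.011 and 6.0e-05), and ASK1, the SKP1 adaptor, by 0.18 in cbp80 (adjusted p = 0.023). Of the 8 co-repressor genes, TPL (TOPLESS) was higher in all 3 mutants, by 0.19 in se-1, 0.25 in cbp20, and 0.45 for cbp80 (adjusted p = 0.031, 0.0095 and 3.4e-05). Its relative TPR3 was lower in se-1 (-0.58, adjusted p = 2.4e-05) and cbp80 (-0.32, adjusted p = 0.0029), and TPR2 was higher in cbp80 (0.16, adjusted p = 0.029). The other 5 were called in no mutant.

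Of the 13 transcription factors that JAZ proteins bind, 10 could be tested. MYC2 had 0 counts in every library, and 98.5% of its exon bases lie within another annotated gene, where pairs were not counted, so its RNA was not measured. Its partner MYC4 was lower in all 3 mutants, with 38.0 ± 4.17 CPM in se-1, 40.1 ± 2.00 CPM in cbp20 and 42.2 ± 3.61 CPM in cbp80, against 53.2 ± 2.15 CPM in WT (log2 fold change -0.48, -0.41 and -0.33, adjusted p = 0.00045, 0.00047 and 0.0016). MYC3 was lower in cbp80 (-0.22, adjusted p = 0.0098), at -0.16 in se-1 (adjusted p = 0.055) and -0.12 in cbp20 (adjusted p = 0.23). Among all tested genes, 16.2% were lower and 17.6% higher in se-1, 9.48% and 10.2% in cbp20, and 18.6% and 20.1% in cbp80. Of the 10 factors, 2 were lower and 2 higher in se-1, 1 lower and 2 higher in cbp20, and 3 lower and 2 higher in cbp80. The higher ones were EGL3, a bHLH factor of trichome and anthocyanin formation (1.05, 0.84 and 1.00 in se-1, cbp20 and cbp80, adjusted p = 0.00023, 0.00031 and 3.0e-05), and EIL1, an ethylene factor (0.57, 0.28 and 0.44, adjusted p = 1.4e-05, 0.0042 and 4.4e-05). TT8, another bHLH factor of this pathway, was lower in se-1 (-1.02, adjusted p = 0.0085).

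The genes that make the hormone were mostly lower. Of 13 jasmonate synthesis genes, 12 were lower in se-1, 11 in cbp20, and 11 for cbp80, with median log2 fold changes of -0.67, -0.48 and -0.59, and 1, 0 and 1 were higher. Of all tested genes, 16.2%, 9.48% and 18.6% were lower and 17.6%, 10.2% and 20.1% higher in these mutants. LOX2, the main chloroplast lipoxygenase of leaves, had 189 ± 36.3 CPM in se-1, 323 ± 24.7 CPM in cbp20 and 128 ± 29.4 CPM in cbp80, against 989 ± 38.4 CPM in WT (log2 fold change -2.39, -1.62 and -2.95, adjusted p = 3.0e-08, 1.5e-08 and 6.3e-10). LOX3 fell by 1.65, 1.14 and 2.25 on the log2 scale (adjusted p = 5.1e-06, 5.7e-05 and 9.2e-08), and the allene oxide cyclase AOC2 by 0.42, 0.97 and 1.29 (adjusted p = 0.0090, 2.1e-05 and 7.2e-07). The 1 higher gene was the acyl-CoA oxidase ACX1, named after its values were seen (0.33 in se-1 and 0.40 in cbp80, adjusted p = 0.0012 and 0.00015).

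Of 10 genes for jasmonate turnover, 8 were tested, and 3 were lower in se-1, 4 in cbp20, and 6 for cbp80, with 0 higher in any (median log2 fold change -0.11, -0.22 and -0.41). The shares of all tested genes were 16.2%, 9.48% and 18.6% lower, and 17.6%, 10.2% and 20.1% higher. The hydroxylase gene CYP94B1 was lower in se-1 (-0.99, adjusted p = 5.3e-05) and cbp80 (-0.39, adjusted p = 0.012), CYP94C1 in cbp20 (-0.62, adjusted p = 0.043) and cbp80 (-0.80, adjusted p = 0.0064), and the amidohydrolase gene ILL6 in all 3 (-0.41, -0.42 and -0.95, adjusted p = 0.031, 0.031 and 1.0e-05). Of 6 output genes, 4 were lower and 1 higher in se-1, 3 of 5 tested were lower in cbp20, and 4 were lower in cbp80. The 1 higher gene in se-1 was ORA59, named after its values were seen. ORA59 averaged 4.19 CPM in se-1, 2.16 CPM in cbp20 and 2.27 CPM in cbp80, against 3.09 CPM in WT. The vegetative storage protein genes VSP1 and VSP2, MYC-branch targets, were lower in all 3 mutants. VSP1 fell by 1.01, 1.18 and 2.59 on the log2 scale in se-1, cbp20 and cbp80 (adjusted p = 4.3e-06, 2.6e-05 and 1.2e-09), and VSP2 by 0.48, 1.72 and 2.85 (adjusted p = 0.0058, 1.3e-08 and 2.9e-10). The defensin gene PDF1.2, a target of the ethylene branch, had 1 to 3 counts per library in se-1, 1 to 30 in cbp20 and 2 to 4 in cbp80, against 21 to 30 in WT. Read pairs that aligned to several places were not counted, and how far this lowered the counts of VSP2 or PDF1.2 was not examined.

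**Figure D5:**
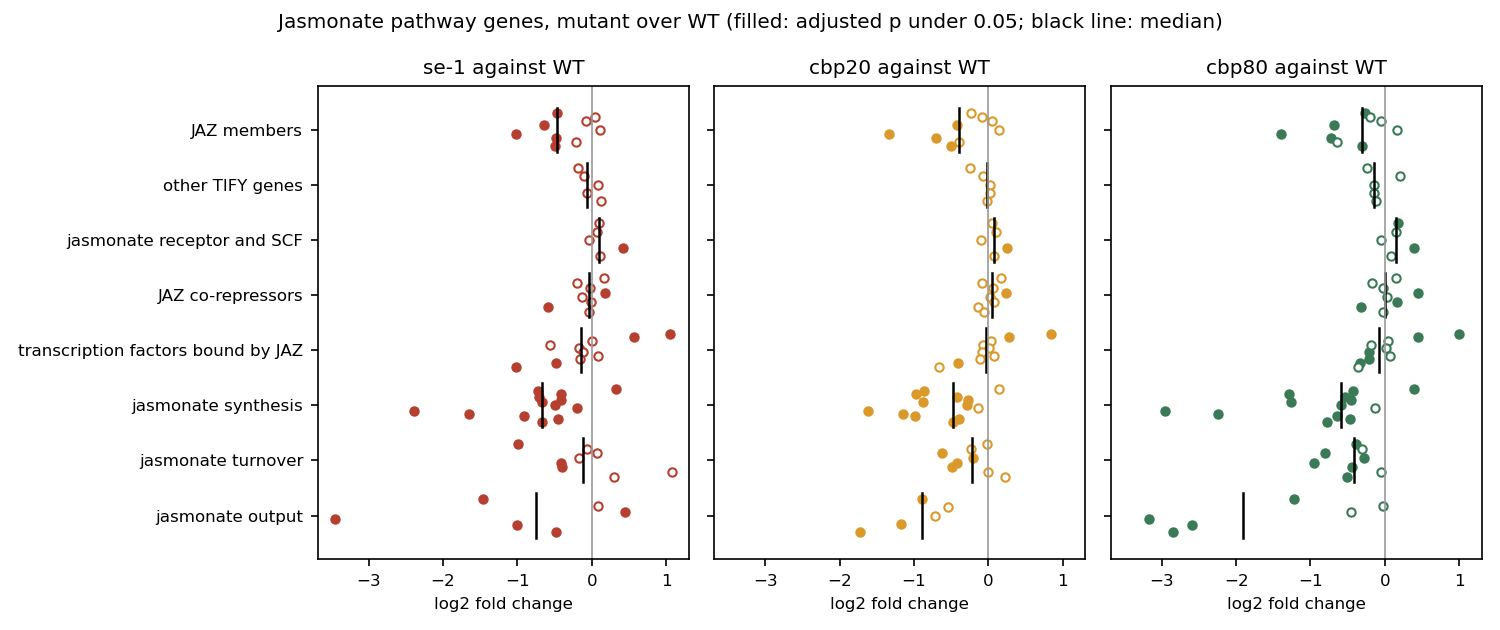
Log2 fold change against WT (horizontal axis) of each tested gene of the jasmonate pathway lists, in se-1, cbp20 and cbp80, filled where the adjusted p was under 0.05, with a black line at the median of each list. The JAZ genes have medians of -0.47, -0.39 and -0.30, the synthesis genes of -0.67, -0.48 and -0.59, and the other TIFY genes of -0.063, -0.021 and -0.14.

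Marker genes of organs and of handling moved with genotype as well. The summed level of 4 shoot markers was 14084 to 15576 CPM in se-1, 9426 to 12115 CPM in cbp20 and 10689 to 11182 CPM in cbp80, against 7750 to 8530 CPM in WT. Of the 3 tested, 3, 2 and 3 were higher in se-1, cbp20 and cbp80, against 17.6%, 10.2% and 20.1% of all tested genes. The largest of these changes were those of LHCB1.2 (1.23 in se-1) and LHCA1 (1.16 in se-1), genes of the light-harvesting complexes. The summed level of 4 root markers was 1579 to 1785 CPM in se-1, 2343 to 2625 CPM in cbp20 and 2100 to 2278 CPM in cbp80, against 2987 to 3220 CPM in WT. This sum was mostly PYK10, an endoplasmic reticulum body glucosidase (-0.86, -0.33 and -0.51 in se-1, cbp20 and cbp80). Of the other 3 root markers, EXPA7 was lower in se-1 and CASP1 was higher in cbp20 and cbp80. The 4 flower markers summed to 3.18 to 3.53 CPM in se-1, 1.61 to 1.67 CPM in cbp20 and 1.76 to 2.80 CPM in cbp80, against 1.04 to 1.07 CPM in WT. AP1, a gene of floral meristems, had 16 to 30 counts in se-1 and 0 or 1 in each library of the other genotypes. SEP3 averaged 1.69 CPM in se-1, 1.47 CPM in cbp20 and 1.82 CPM in cbp80, against 0.836 CPM in WT. Of the flower markers tested, 2 of 2 were higher in se-1, 1 of 1 in cbp20 and 1 of 1 in cbp80. The shares of all tested genes called higher are those given above. The part of these marker genes in the JAZ levels was not tested.

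Because seedlings were handled on ice, 10 genes that respond within minutes to touch or wounding were read too. They summed to 315 to 357 CPM in se-1, 247 to 335 CPM in cbp20 and 353 to 429 CPM in cbp80, against 308 to 359 CPM in WT. The ranges of all 3 mutants overlapped WT. Of the 10 genes, 3 were lower and 1 higher in se-1, 4 lower and 0 higher in cbp20, and 1 lower and 4 higher in cbp80. For all tested genes the shares were 16.2% and 17.6% in se-1, 9.48% and 10.2% in cbp20, and 18.6% and 20.1% in cbp80. The zinc finger gene ZAT12 was lower in all 3 mutants (-0.51, -1.03 and -0.75 in se-1, cbp20 and cbp80, adjusted p = 0.0015, 0.00020 and 7.5e-05), the calmodulin-like gene CML37 in se-1 and cbp20 (-1.19 and -1.24, adjusted p = 0.028 and 0.020), and TCH4, a wall enzyme gene, was higher in se-1 and cbp80 (0.80 and 0.70, adjusted p = 0.0014 and 0.00010). In se-1 and cbp80 the called genes went both ways, and in cbp20 they were all lower. The part of handling in the JAZ levels was not tested.

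The genes whose pattern was most like the mean of the 9 JAZ genes were looked up among 15486 genes of at least 5 CPM. Pearson's correlation was taken between log2(CPM + 1) and the mean standardized JAZ level over the 12 libraries. This mean is not the pattern of each gene, since JAZ2 and JAZ3, for example, had a correlation of -0.56. In this mean, cbp20 replicate 3 (0.60) lay above WT replicate 1 (0.51). For JAZ2, JAZ5, JAZ6 and JAZ9, every mutant library was below WT. AT3G54290 (0.95), AT4G02715 (0.93), AT2G37035 (0.92), GBF4 (0.92), a bZIP factor, and AT5G58790 (0.91) came first. GBF4 had 17.1, 16.8 and 16.2 CPM on average in se-1, cbp20 and cbp80, against 19.4 CPM in WT. For JAZ1 alone they were AT3G50650, AT1G68470 and CIPK4, a protein kinase gene, all at 0.95. AT3G50650 averaged 12.5, 16.9 and 15.2 CPM in se-1, cbp20 and cbp80, against 20.5 CPM in WT. These values describe likeness over libraries that share genotypes, and carry no test.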

How the data were processed

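The authors used Bowtie2 (2.1.0) to discard rRNA and tRNA reads, aligned the rest to TAIR10 with TopHat2 (2.1.1) and counted read pairs on exons with featureCounts (1.5.0-p3), without strand, multi-mapped pairs or pairs on several genes, as the methods and the file header state. The deposited counts are whole read pairs per gene without normalization, and 0 of their per-sample columns were left unmapped. Deposited DESeq2 (1.14.1) tables hold the authors' own comparisons (log2 fold changes and p-values) and were not used.

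Each mutant was compared with WT on 6 libraries in edgeR 4.0.16 (R 4.3.3): TMM, a minimum of 10 counts in 3 or more libraries, quasi-likelihood test, Benjamini-Hochberg adjustment over all tested genes, called under 0.05. Mutants were compared in 1 fit of all 12 libraries. Standard errors were worked back from the F statistic and are approximate. CPM and TPM (exon length from the count table) were scaled with TMM factors of all 12 libraries. The 95% intervals rest on the spread between libraries. The floor of 3 counts covers counting error only, since reads carry no molecular identifiers. The script was tested on simulated data. Alternatives were DESeq2 1.42.0, library size only, relative log expression factors, no filter, a replicate block, other sets of libraries and each library left out.

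The JAZ genes and the pathway and marker lists were chosen with earlier results of these data known. Named besides the JAZ genes were COI1, NINJA, MYC2, MYC3, MYC4, up to 3 called genes per list with the largest log2 fold change in any mutant against WT, and the genes most alike in pattern. Positions are from TAIR10, where 99.95% of 32548 genes had the same ends in the RefSeq annotation. An exact permutation test of 3 libraries against 3 cannot go below 0.1 and was not used.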

Additional observations from a re-analysis of the deposited data

Results flagged for a closer look

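The effects of the 3 mutants on JAZ RNA were compared by testing the mutants against each other, and 4 differences passed an adjusted p of 0.05 (edgeR's quasi-likelihood test, adjusted by Benjamini-Hochberg). Of the 9 tested JAZ genes, 2 were called between se-1 and cbp20, against 13.6% of all tested genes. Between se-1 and cbp80 it was 1, against 11.4%, and between cbp80 and cbp20 1, against 10.2%. With 9 genes, these counts are near the shares of all genes and do not set the JAZ genes apart. JAZ1 was lower in se-1 than in cbp20, with a log2 fold change of -0.25. JAZ2 was lower in se-1 than in cbp20 (-0.23) and lower in cbp80 than in cbp20 (-0.27). JAZ6 was higher in se-1 than in cbp80 (0.24). With single libraries left out, JAZ1 passed in 2 of 6 fits and JAZ6 in 3 of 6. JAZ2 passed in 3 of 6 for se-1 against cbp20 and in 6 of 6 for cbp80 against cbp20. The causes of these differences were not tested.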

How the results depend on the processing

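Against WT, the calls of JAZ2, JAZ5, JAZ6 and JAZ9 in all 3 mutants and of JAZ1 in se-1 and cbp80 held in all 6 alternative settings and with each library left out. Where a call changed, the cause was not tested. In cbp20, JAZ1 passed with library size only (log2 fold change -0.27), no filter (-0.23), the replicate block (-0.23) and 1 fit of all 12 libraries (-0.23). Between se-1 and cbp20, the JAZ genes called lower numbered 2, against 1 with DESeq2 and 0 with the 6 libraries alone, and 0 to 2 with single libraries left out, while 1 (JAZ6) was called higher with relative log expression factors and with no filter. Between se-1 and cbp80, 1 (JAZ1) was called lower with the 6 libraries alone and 0 to 1 with single libraries left out, and 0 to 1 were called higher. Between cbp80 and cbp20, 0 to 1 were called higher. Over all genes, those called lower in se-1 numbered 5074 with library size only (3319 with TMM), those lower in cbp20 1251 without cbp20 replicate 1 (1941 with it), those lower in se-1 than in cbp20 830 without se-1 replicate 3 (1302), and without cbp80 replicate 2 there were 827 lower and 731 higher genes in se-1 than in cbp80 (1242 and 1146) and 492 lower and 768 higher in cbp80 than in cbp20 (870 and 1251). With library size only, 1869 genes were lower and 1237 higher in se-1 than in cbp20 (1302 and 1545 with TMM), and 1144 and 1018 in cbp80 than in cbp20.

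Signs turned only for values that passed no test. With library size only, JAZ10 was at -0.046 in se-1 against WT, JAZ9 at -0.032 in se-1 against cbp20 and JAZ3 at -0.0093 in cbp80 against cbp20. With single libraries left out, JAZ10 ranged from -0.14 to 0.31 in se-1, -0.29 to 0.19 in cbp20 and -0.35 to 0.070 in cbp80 against WT, and JAZ12 from -0.0085 to 0.13 in cbp20 against WT. In se-1 against cbp20, JAZ3 ranged from -0.13 to 0.013, JAZ7 from -0.15 to 0.42, JAZ9 from -0.043 to 0.068 and JAZ10 from -0.085 to 0.35. In se-1 against cbp80, JAZ3 ranged from -0.10 to 0.0047 and JAZ12 from -0.064 to 0.043. In cbp80 against cbp20, JAZ1 ranged from -0.098 to 0.070, JAZ3 from -0.069 to 0.076, JAZ5 from -0.14 to 0.077, JAZ6 from -0.079 to 0.037 and JAZ10 from -0.32 to 0.092.

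The series' design sets same-numbered libraries against each other without saying what they share. Deviations of same-numbered libraries from their genotype means correlated between -0.067 and 0.15, over 0.1 in 1 of 18 pairs, so the numbers were not taken to pair the samples. With the replicate block, 5, 5 and 5 JAZ genes were lower in se-1, cbp20 and cbp80 (5, 4 and 5 without), and 3386, 2228 and 3757 of all genes. TPM without TMM scaling moved 5 of 36 levels beyond 1 SD. JAZ7, JAZ8 and JAZ10 were limited by depth, and MYC2 by the counting rule.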
